A study of Mus musculus with 6 samples.

Results

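The 10 genes described here build the pigment melanin or the melanosome, the organelle in which pigment cells make and store it. They were taken by symbol from the deposited count table (Tyr, Tyrp1, Dct, Pmel, Mlana, Slc45a2, Slc24a5, Oca2, Trpm1 and Gpr143), and all 10 were among its 14484 genes. RNA from mouse skin was sequenced in 6 libraries on a C57BL/6-129J strain background. The 3 ATR WT libraries carried ATR +/+, and the 3 ATR mD/mD libraries carried ATR fl/fl, which the labels equate with loss of part of the kinase domain of Atr, a kinase that answers stalled DNA replication. Both groups also carried one Braf CA allele (Braf CA/+) and Cre, so both genotypes hold the allele of the growth-signalling kinase Braf. The series design calls the tissue nevi, benign growths of pigment cells. Age, sex, coat colour, the promoter that drives Cre and any inducing treatment are not given in the labels. They do not say whether each library came from its own animal. Levels of Y-linked genes, given below, differed within each group, so each group drew on more than 1 animal. Every p-value reflects only how these libraries vary, part of which may be technical.

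As background, melanin synthesis starts with the oxidation of tyrosine by tyrosinase, the product of Tyr, and is completed for the dark pigment eumelanin by the related enzymes made from Dct and Tyrp1. These enzymes act inside the melanosome, a relative of the lysosome, on a scaffold of fibrils made from Pmel protein, and they need the organelle to be held near neutral pH by transporters. The transcription factor MITF drives many of these genes through a short promoter element, the M-box. In mouse skin most pigment cells sit in hair follicles, where melanin synthesis runs while the hair grows and stops when it rests.

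Promoter sequences are shown first, because several of the 10 genes are known to be driven through this element. Its part in their levels over the libraries was not tested. RefSeq windows (GRCm38.p6) matched 6 of the 10 genes, with 7 windows since Trpm1 has 2 starts. Pmel, Mlana, Slc45a2 and Gpr143 had no entry. In the 250 bases upstream of the start, the M-box core CATGTG (or CACATG on the other strand) was found in 6 of 7 windows, against 12.3% of all 32851 windows. The longer form TCATGTG was found in 5 of 7 windows, against 3.25% of all windows. The element was looked for because several of these genes were already known to be driven through it. Both counts are therefore a description and not an independent test. One stretch per gene is printed 5′ to 3′ on the gene's own strand, with TCATGTG or its reverse complement in capitals.
Tyr, chr7:87493513-87493574, minus strand: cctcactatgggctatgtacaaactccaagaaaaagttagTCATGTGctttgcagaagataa
Tyrp1, chr4:80834155-80834184, plus strand: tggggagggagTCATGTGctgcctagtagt
Dct, chr14:118052351-118052437, minus strand: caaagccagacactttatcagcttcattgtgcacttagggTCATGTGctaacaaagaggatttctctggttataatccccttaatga
Trpm1, chr7:64153653-64153739, plus strand: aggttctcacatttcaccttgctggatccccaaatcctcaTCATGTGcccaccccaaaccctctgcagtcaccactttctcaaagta
Slc24a5, chr2:125068074-125068123, plus strand: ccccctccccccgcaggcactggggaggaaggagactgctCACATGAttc

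The longest run of bases that the windows of Tyr, Tyrp1 and Dct have in common was GTCATGTGCT, 10 bases around the M-box core. This run (or AGCACATGAC) occurred in 0.155% of all windows, 51 of 32851. Since it was defined from these 3 genes, its presence in them is a description. Its first base lay 23 bases upstream of the RefSeq start in Tyr, 48 in Tyrp1 and 152 in Dct. The Tyrp1 stretch lies inside the gene as GENCODE M21 draws it, which begins farther upstream than the RefSeq start. Oca2 held CATGTG on the other strand, 186 bases upstream, but not TCATGTG, and Dct held a second TCATGTG on the other strand, 232 bases upstream. The other E-box form CACGTG, which reads the same on both strands, was in 1 of 7 windows (the second start of Trpm1), against 6.02% of all windows. The SOX-type cores ACAAAG and ACAATG were in 3 and 1 of 7 windows (16.5% and 10.7% of all windows), and TATAAA was in 1 (12.4%). In Dct, 1 match to ACAAAG starts 141 bases upstream, just after the M-box match. A match is a run of letters, and no binding was measured here.

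**Figure D1:**
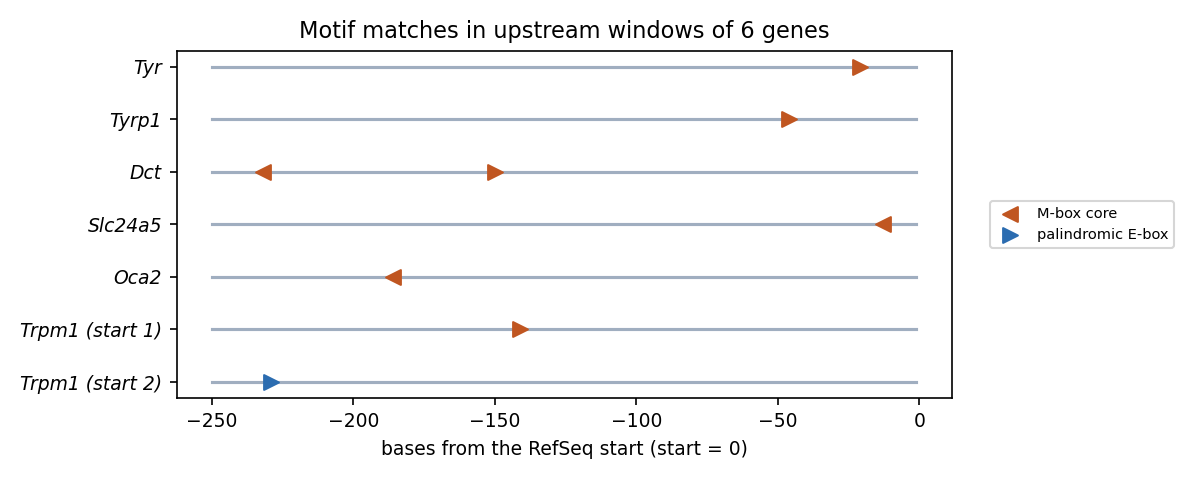
Positions of the M-box core (orange) and of the palindromic E-box (blue) in the 250 bases upstream of each RefSeq start, in bases from the start; triangles to the right mark the gene's strand and triangles to the left the other strand. The M-box core appears in 6 of 7 windows, nearest to the start in Slc24a5 (13 bases) and Tyr (21 bases).

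Library facts that bear on these genes were as follows. Gene counts ranged from 34723600 to 46847751 per library. Levels are in CPM, counts per 1000000 after TMM scaling. Atr stood at 17.6 to 24.5 CPM with ATR WT and at 20.8 to 24.8 CPM with ATR mD/mD. Reads from exons that the deletion leaves are also in these counts, which therefore do not test it. Keratinocyte markers were high throughout (summed level 14448 to 24167 CPM in ATR WT, 17486 to 23298 CPM in ATR mD/mD). The 10 pigment genes together took 0.00858% to 0.0865% of a library's gene counts. The mean log2 CPM of 27 hair structural genes, such as hair keratins, was high in ATR WT libraries 2 (7.21) and 3 (7.47) and in ATR mD/mD library 3 (7.43). Low values were found in ATR WT library 1 (1.91) and in ATR mD/mD libraries 1 (-0.31) and 2 (2.26). These levels fall into 2 separate clusters of libraries that cut across genotype, and no correlation with them is given. The mean of 4 Y-linked genes was 4.75 to 5.17 log2 CPM in library 1 of ATR WT and libraries 2 and 3 of ATR mD/mD and -4.04 to -3.61 in the other libraries; its part in the results was not tested beyond the fit with it as a covariate. With 3 against 3 libraries, all fold changes below come from edgeR's quasi-likelihood test over all 14484 genes, as log2 of ATR mD/mD against ATR WT with a standard error (SE).

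All 10 genes followed 1 pattern over the libraries. Levels were high in ATR WT libraries 2 and 3 and ATR mD/mD library 3, and low in ATR WT library 1 and ATR mD/mD libraries 1 and 2. These are the libraries at the top and the bottom of the hair gene level. In 10 of 10 genes the 3 highest libraries were the 3 highest in hair level, an order that 19.6% of all genes showed. The highest library stood 7.80-fold (Dct) to 39.3-fold (Oca2) above the lowest, with a median of 15.7-fold. Every gene in the deposited table had at least 1 CPM in 3 or more libraries. Oca2 and Gpr143 reached 1 CPM only in the 3 libraries of high hair level. If the table was filtered this way, they could enter it only with this order. Their part in the count is then fixed. Among the other genes the widest range was 18.9-fold (Mlana). Fewer pigment cells and less RNA per cell cannot be told apart in bulk skin.

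**Figure D2:**
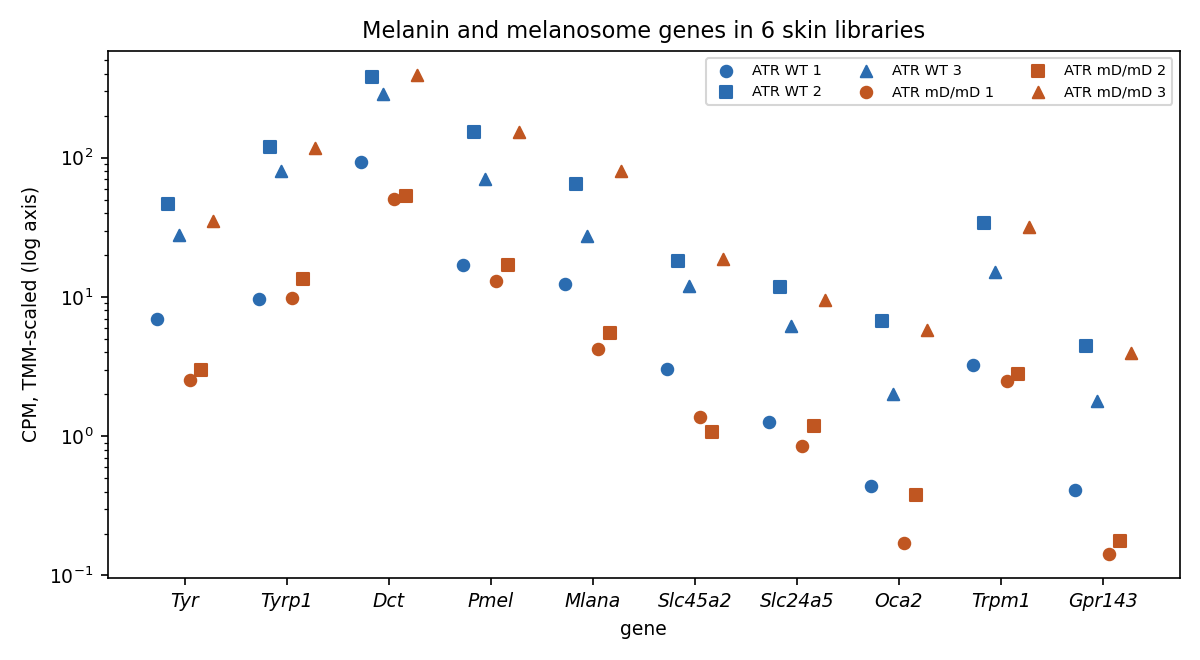
CPM of the 10 genes in each library on a log axis, blue for ATR WT and orange for ATR mD/mD, with circles, squares and triangles for replicates 1, 2 and 3. In every gene ATR mD/mD 3 lies with ATR WT 2 and 3, and ATR WT 1 lies with ATR mD/mD 1 and 2; Oca2 spans 39.3-fold and Dct 7.80-fold.

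The enzymes are given first, each with the span of its gene in GENCODE M21. Tyr (chromosome 7, 87424771 to 87493512, mm10), whose product starts melanin synthesis and limits its rate, stood at 6.92, 46.9 and 27.8 CPM in ATR WT libraries 1, 2 and 3, with 2.55, 2.97 and 35.3 CPM in ATR mD/mD libraries 1, 2 and 3, the order used for all genes below. ATR mD/mD 3 lay between ATR WT 2 and 3, so the groups overlapped. Its log2 fold change of -1.003 (SE 1.15) was the most negative of the 10, with an adjusted p of 0.9999 in edgeR. Tyrp1 (chromosome 4, 80834123 to 80851719), an enzyme of the eumelanin branch that also steadies tyrosinase, stood at 9.71, 119.8 and 80.3 CPM in the ATR WT libraries and 9.75, 13.4 and 117 CPM in those of ATR mD/mD. Here ATR WT 1 was the lowest of the 6 libraries, if by less than 0.01 on the log2 scale (-0.0066 against ATR mD/mD 1); in the other genes except Slc45a2 the lowest was ATR mD/mD 1. Dct (chromosome 14, 118012790 to 118052244), dopachrome tautomerase, stood at 92.5, 380.3 and 288 CPM in the ATR WT libraries and 50.6, 53.0 and 394 CPM in those of ATR mD/mD. It had the narrowest range of the 10 genes and stayed above 50 CPM in every library. The log2 fold changes of Tyrp1 and Dct were -0.58 (SE 1.17) and -0.61 (SE 0.918), each below its own SE.

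Pmel (chromosome 10, 128704195 to 128720238), which makes the fibrils on which melanin is laid down, stood at 17.0, 152 and 70.0 CPM in the ATR WT libraries and 13.1, 17.1 and 153 CPM in those of ATR mD/mD. ATR WT 1 and ATR mD/mD 2 had nearly the same Pmel level, and so had ATR WT 2 and ATR mD/mD 3. Mlana (chromosome 19, 29697824 to 29708634), a melanosome membrane protein needed for Pmel to mature, stood at 12.4, 64.8 and 27.6 CPM in the ATR WT libraries and 4.26, 5.54 and 80.4 CPM in those of ATR mD/mD. Its highest library was ATR mD/mD 3 and its lowest ATR mD/mD 1, so the ATR mD/mD libraries enclosed all of ATR WT. They did so in Dct, Pmel and Slc45a2 too. The log2 fold change was -0.39 (SE 1.12) for Pmel and -0.22 (SE 1.19) for Mlana, the closest to 0 of the 10. Exons of Pmel overlap those of Cdk2 and Dgka over 6.06% of its exonic length, and the kit does not mark the strand, so a few reads of these genes cannot be told apart.

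Transporters and channels of the melanosome and the pigment cell had the same 3 highest libraries, ATR WT 2 and 3 and ATR mD/mD 3. Slc45a2 (chromosome 15, 11000721 to 11029233), a transporter that keeps the melanosome from turning acid, stood at 3.03, 18.2 and 11.97 CPM in the ATR WT libraries and 1.37, 1.07 and 18.9 CPM in those of ATR mD/mD. Slc24a5 (chromosome 2, 125068124 to 125088677), a cation exchanger of pigment cells, stood at 1.27, 11.8 and 6.20 CPM in the ATR WT libraries and 0.858, 1.19 and 9.59 CPM in those of ATR mD/mD. For Slc24a5, 39.5% of the exonic length is shared with Myef2, so its level is uncertain. Oca2 (chromosome 7, 56239760 to 56536518), a melanosome membrane protein that raises pH, stood at 0.441, 6.74 and 2.03 CPM in the ATR WT libraries and 0.172, 0.381 and 5.78 CPM in those of ATR mD/mD. It had the widest range of the 10 genes. Trpm1 (chromosome 7, 64153835 to 64269775), a cation channel of pigment cells, stood at 3.25, 34.1 and 15.2 CPM in the ATR WT libraries and 2.49, 2.82 and 32.1 CPM in those of ATR mD/mD. In Slc45a2, Slc24a5, Oca2 and Trpm1, too, ATR mD/mD 3 stood above ATR WT 3 and the groups overlapped. The log2 fold changes were -0.64 (SE 1.18) for Slc45a2, -0.73 (SE 1.10) for Slc24a5, -0.54 (SE 1.40) for Oca2 and -0.49 (SE 1.19) for Trpm1.

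Gpr143 (chromosome X, 152781921 to 152808646), a receptor in the melanosome membrane that controls the size and number of the organelles, stood at 0.414, 4.42 and 1.78 CPM in the ATR WT libraries and 0.143, 0.178 and 3.98 CPM in those of ATR mD/mD. The gene is X-linked, and its high libraries include ATR WT 2 and 3, where Y-linked genes were near 0, and ATR mD/mD 3, where they were high. Its log2 fold change was -0.63 (SE 1.36). The low end of Oca2 and Gpr143 rests on few reads. Gpr143 had 5 counts in ATR mD/mD 1 (exact 95% Poisson interval 1.62 to 11.7) and 7 in ATR mD/mD 2 (2.81 to 14.4), and Oca2 had 6 in ATR mD/mD 1 (2.20 to 13.1). Such intervals cover counting error only, and PCR copies may make them too narrow. At this depth a difference between ATR mD/mD 1 and 2 in Gpr143 was not detectable.

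By genotype, no gene of the 10 passed. All 10 log2 fold changes were below 0, as were 48.0% of all genes, with a median of -0.59 beside 0.0070 over all genes. None of the 10 was called at an adjusted p under 0.05 in either direction (adjusted p = 0.9999 for each, edgeR), against 0.0483% of all genes called lower and 0.0% called higher. At an unadjusted p under 0.05, 0 of 10 were lower and 0 higher, against 1.09% and 0.566% of all genes, and unadjusted p ran from 0.412 (Tyr) to 0.860 (Mlana) in edgeR. DESeq2 and limma-voom also called 0 of 10; DESeq2 called 0.229% of all genes lower and 0.0416% higher, and limma-voom 0.0483% lower. The fold changes of limma-voom were larger, from -1.77 to -0.82 on the log2 scale with a median of -1.20, and those with the replicate number as a block had a median of -1.14. With the replicate number as a block, 0 of 10 were called against 0.0414% of all genes lower, and with the Y-linked level as a covariate 0 of 10 against 0.0276%. The groups overlapped in all 10 genes, while they did not overlap, with ATR mD/mD lower, in 2.58% of all genes. In the authors' deposited table the log2 fold changes of the 10 ran from -1.001 (Tyr) to -0.22 (Mlana), each with an adjusted p of 1.

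These values differed widely when 1 library was left out. Without ATR mD/mD 3, the ATR mD/mD library with high hair level, log2 fold changes ran from -3.75 (Gpr143) to -2.29 (Dct). All 10 then had an unadjusted p under 0.05, from 0.00941 to 0.0477, against 4.42% of all genes lower, and 0 of 10 passed after adjustment against 0.0345% (adjusted p = 0.708 for each, edgeR). That fit sets 2 libraries of high hair level and 1 of low hair level against 2 of low hair level. Without ATR WT 2, the median was 0.21 and 3 of 10 genes were below 0. Without ATR mD/mD 1 or 2 the median was -0.092 or -0.11. With the hair level as a covariate in the model, 5 genes were below 0 and 5 above, beside 48.2% of all genes below 0. At an unadjusted p under 0.05, 0 of 10 passed that fit, against 4.32% of all genes, and after adjustment 0 of 10, against 0.0621% lower and 0.0069% higher. The values ran from -0.49 (SE 0.363, Tyr) to 0.38 (SE 0.340, Tyrp1), with an adjusted p of 0.993 or above in each (edgeR), and the SEs were 0.299 to 0.573 in place of 0.918 to 1.40.

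**Figure D3:**
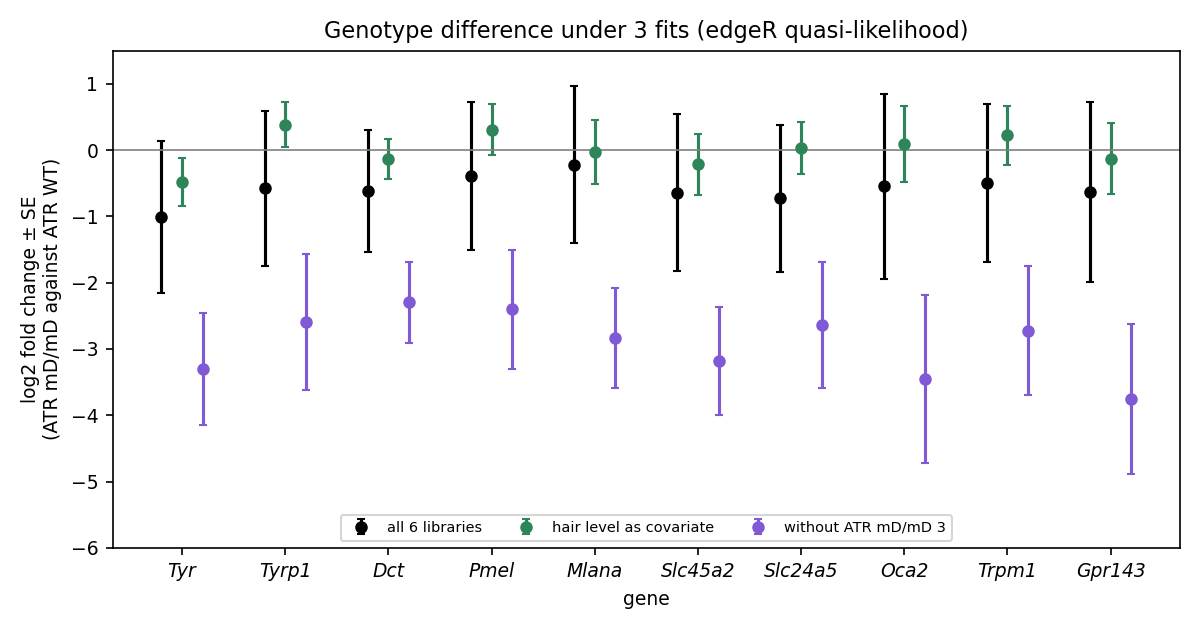
Log2 fold change of ATR mD/mD against ATR WT with its SE for each gene, in the fit of all 6 libraries (black), with the hair level as a covariate (green) and without ATR mD/mD 3 (purple). The black values lie between -1.003 and -0.22, the green ones on both sides of 0 and the purple ones between -3.75 and -2.29.

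The level of the 10 genes and the hair level did not differ in equal steps. The mean log2 CPM of the 10 genes was 2.20, 5.21 and 4.23 in ATR WT 1, 2 and 3 and 1.33, 1.63 and 5.13 in ATR mD/mD 1, 2 and 3. ATR WT 3 had the highest hair level, yet it was below ATR WT 2 in 10 of 10 genes, as 52.1% of all genes were. That gap was widest in Oca2 (-1.71 on the log2 scale), Gpr143 (-1.29) and Mlana (-1.23) and smallest in Dct (-0.40). ATR mD/mD 3 lay above ATR WT 3 in all 10 genes, an order that was not counted over all genes. It lay between ATR WT 2 and 3 in 6 of the 10, against 20.8% of all genes. In the other 4 (Dct, Pmel, Mlana and Slc45a2) it was the highest library. ATR WT 2 was highest in the 6, as in 5.96% of all genes, and ATR mD/mD 3 was below both in 0 of 10, against 40.7%.

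Among the libraries of low hair level, ATR WT 1 was above both ATR mD/mD 1 and ATR mD/mD 2 in 8 of 10 genes, against 37.5% of all genes. The exceptions were Tyrp1 and Pmel. ATR WT 1 and ATR mD/mD 2 had like hair levels (1.91 and 2.26 log2 CPM). Between them the difference was largest in Slc45a2 (1.47 on the log2 scale), Tyr (1.21) and Mlana (1.16), and it was -0.46 in Tyrp1. ATR mD/mD 1 had the lowest hair level, more than 2 log2 units under the other libraries of low hair level. It was below ATR mD/mD 2 in 9 of 10 genes, against 50.2% of all genes, by a log2 difference from -0.96 in Oca2 to -0.067 in Dct. In Slc45a2 the difference was 0.35. With 1 ATR WT library against 2, these differences have no replicate check and were not tested.

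**Figure D4:**
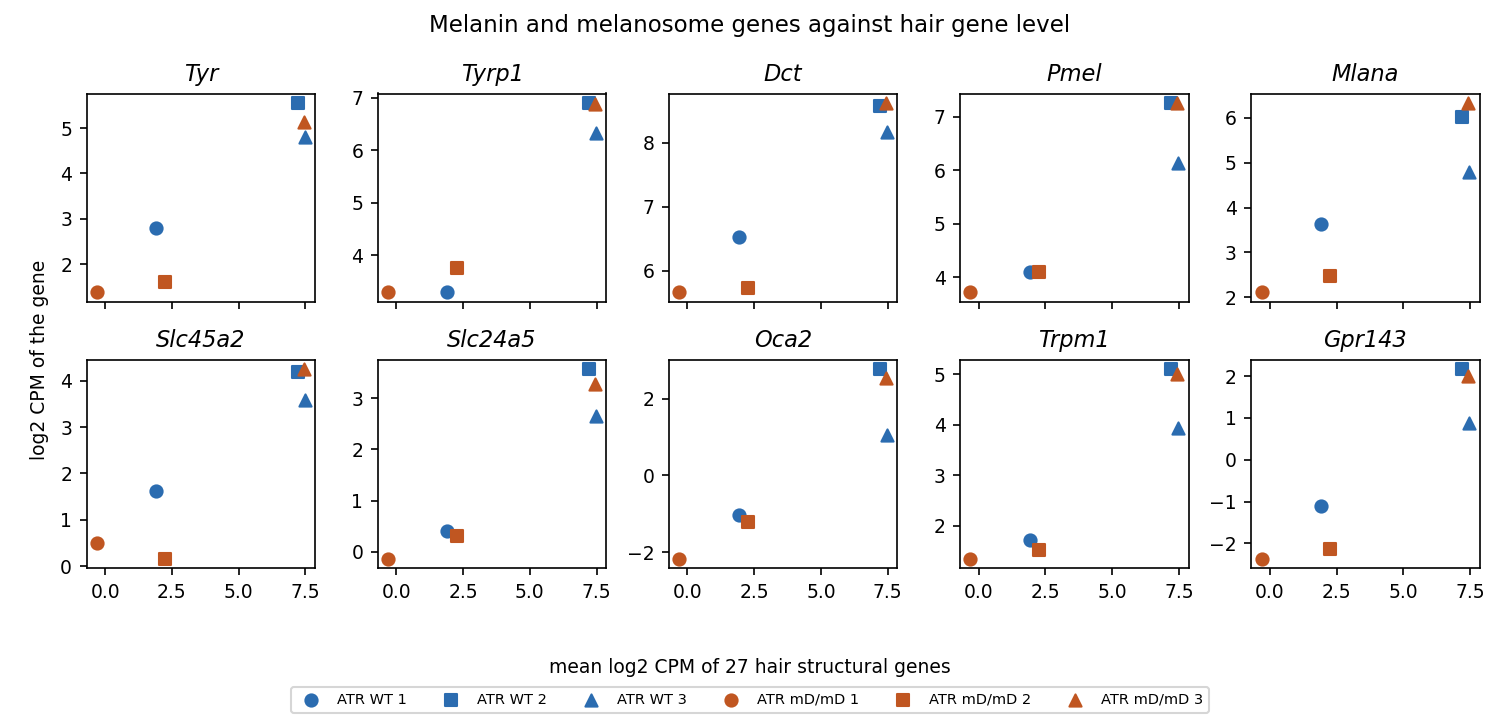
Log2 CPM of each gene against the mean log2 CPM of 27 hair structural genes, 1 point per library (blue ATR WT, orange ATR mD/mD; circle, square and triangle for replicates 1, 2 and 3). The 3 libraries of high hair level (7.21 to 7.47) hold the highest values in all 10 genes, and within them ATR WT 3 is the lowest.

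The mix of the 10 transcripts also differed between libraries. This look at ratios was chosen after the values were seen. Dct made up 62.9%, 45.3% and 54.2% of the counts of the 10 genes in ATR WT 1, 2 and 3 and 59.3%, 54.3% and 46.4% in ATR mD/mD 1, 2 and 3, so it was the largest part in every library. Mlana exceeded Tyrp1 in counts in ATR WT 1, where it was 56.2% of the sum of both (exact Clopper-Pearson 95% interval 52.7% to 59.6%). In the other 5 libraries that share was 25.6% to 40.7%. Tyrp1 was 9.50% of the sum of Tyrp1 and Dct in ATR WT 1 (8.57% to 10.5%) and 16.2% to 23.9% elsewhere. Thus ATR WT 1 had a low Tyrp1 level relative to both other transcripts. Tyr was 4.79% (3.87% to 5.86%) and 5.31% (4.41% to 6.33%) of the sum of Tyr and Dct in ATR mD/mD 1 and 2, and 6.96% to 10.98% in the other libraries. These intervals cover counting error only.

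Levels of different genes were compared per kilobase of merged exons in GENCODE M21, as CPM per kb, over all 6 libraries. The order of the means was Dct (35.6 ± 27.7 CPM per kb, SD, n = 6), Mlana (30.8 ± 30.8), Pmel (30.7 ± 29.3), Tyrp1 (20.6 ± 19.0), Slc45a2 (3.04 ± 2.79), Tyr (2.87 ± 2.66), Slc24a5 (2.21 ± 2.05), Trpm1 (1.02 ± 1.01), Gpr143 (0.911 ± 0.974) and Oca2 (0.654 ± 0.741). The SDs, close to the means, include the difference between libraries of high and low hair level, so neighbours were compared within libraries. Pmel was above Tyrp1, Tyrp1 above Slc45a2, Slc24a5 above Trpm1 and Trpm1 above Gpr143 in 6 of 6 libraries. Dct was above Mlana, and Gpr143 above Oca2, in 5 of 6. Slc45a2, Tyr and Slc24a5 exchanged places (4 of 6 libraries for each step), and Mlana was above Pmel in 2 of 6, so these neighbours did not differ beyond their spread. The 4 highest genes, Dct, Mlana, Pmel and Tyrp1, stood above the other 6 in their means. The merged exons of Trpm1 (14.7 kb, all transcripts) are the longest of the 10, from 1.06 kb in Mlana upward, and a merged length lowers the value of a gene whose transcripts use only part of it.

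Other genes of the pathway had narrower ranges. Of 29 genes of melanosome biogenesis and transport, which sort cargo into the organelle or carry it, 16 were below 0 and 13 above, with a median log2 fold change of -0.0011, and 0 passed in either direction. Their range from lowest to highest library had a median of 0.68 log2 units, the same as over all genes, beside 3.92 for the 10 melanin and melanosome genes. None of the 29 reached the narrowest range of the 10 (2.96, Dct), which 2.62% of all genes did. The 4 with the smallest p were Rab32, a small GTPase of cargo delivery (-0.33, SE 0.212), Gpnmb, a relative of Pmel also made by macrophages (-0.77, SE 0.516), Sytl2, a Rab27 effector (-0.60, SE 0.462), and Mlph, which links melanosomes to myosin (-0.75, SE 0.593). Gpnmb stood at 189.7, 645 and 487 CPM in the ATR WT libraries and 297, 135 and 341 CPM in those of ATR mD/mD. Its 3 highest libraries were those of high hair level, as in 8 of the 29 genes (27.6%), Sytl2 and Mlph included, beside 19.6% of all genes.

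Regulators of the pigment lineage had ranges with a median of 1.48 log2 units, also narrower than that of the 10 genes. Of 9 measured, 7 were below 0, with a median of -0.18, and 0 passed in edgeR. The 3 highest libraries were those of high hair level in 6 of the 9 (66.7%), Mitf, Pax3 and Tfap2a included, beside 19.6% of all genes. Mitf, the main driver of the lineage, stood at 27.9, 43.0 and 53.8 CPM in the ATR WT libraries and 34.8, 31.1 and 35.8 CPM in those of ATR mD/mD (log2 fold change -0.29, SE 0.242). Its highest library stood 1.93-fold above its lowest, while Tyr spanned 18.4-fold over the same libraries. The count covers all Mitf starts, and other skin cells use some of them. Pax3 had -0.98 (SE 0.513) and Tfap2a -0.18 (SE 0.246). Mc1r, the receptor that switches pigment cells to eumelanin, was named after its values were seen. It stood at 2.21, 14.4 and 4.63 CPM in the ATR WT libraries and 0.915, 1.17 and 14.5 CPM in those of ATR mD/mD, a pattern close to that of the 10 genes.

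Sox10, a factor that acts with MITF in pigment cells and is also made by Schwann cells, did not have the hair order of libraries. It stood at 31.3, 43.8 and 35.0 CPM in the ATR WT libraries and 17.6, 20.9 and 23.6 CPM in those of ATR mD/mD. Here the groups were apart, with ATR WT higher, as in 2.58% of all genes and in 1 of the 9 regulators; it was named for the smallest p of its list. The log2 fold change was -0.83 (SE 0.183), with an unadjusted p of 0.00332 and an adjusted p of 0.9999 (edgeR). DESeq2 gave an adjusted p of 0.0476, and over all alternatives the adjusted p ran from that value to 1.0. With the hair level as a covariate it was -0.70 (SE 0.150, adjusted p = 0.721, edgeR). Of 9 Schwann cell markers, 9 were below 0 (median -0.30) and 0 passed, with summed levels of 249 to 462 CPM in ATR WT and 187 to 429 CPM in ATR mD/mD. The part of Schwann cells in the Sox10 difference was not tested.

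Signals sent to pigment cells by other skin cells were measured for 5 of 8 listed genes, and 0 passed. The 4 with the smallest p were Edn3 (0.39, SE 0.336), Edn1 (-0.54, SE 0.519), Hgf (-0.45, SE 0.512) and Kitl (0.05, SE 0.194). Kitl, the ligand of the receptor Kit, was at 36.9 to 51.9 CPM in ATR WT and 38.5 to 54.7 CPM in ATR mD/mD, with no step between libraries of high and low hair level. Corin, a protease of the hair papilla that acts against yellow pigment, was named after its values were seen. It stood at 1.60, 10.9 and 12.6 CPM in the ATR WT libraries and 1.32, 1.93 and 27.4 CPM in those of ATR mD/mD, with the hair order of the 10 genes.

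**Figure D5:**
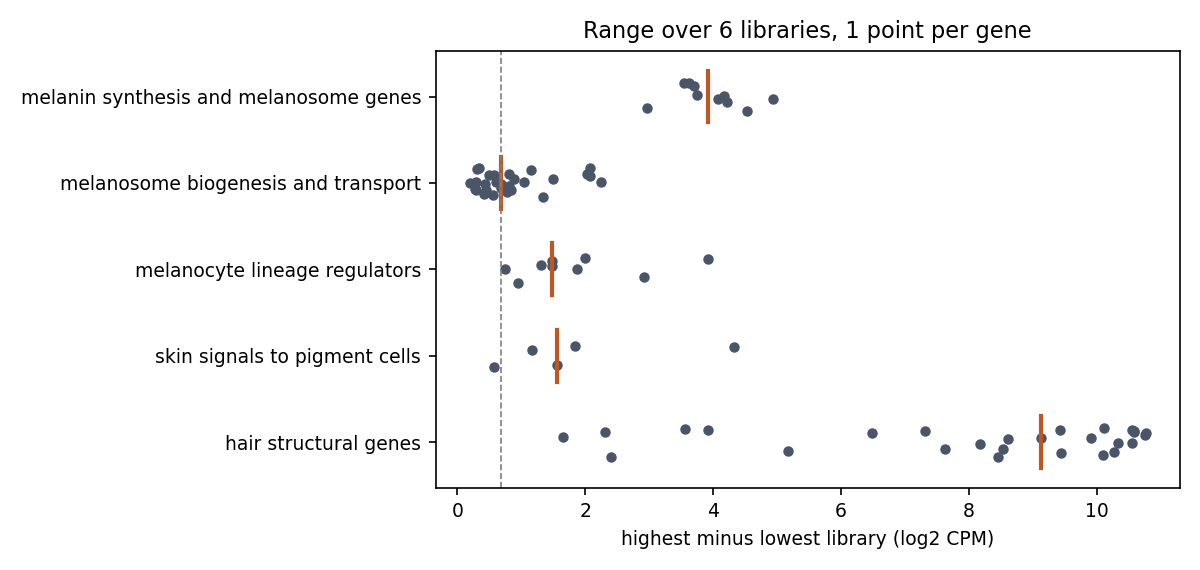
Difference between the highest and the lowest library in log2 CPM, 1 point per gene, for the 10 melanin and melanosome genes and 4 other lists; orange bars are list medians and the dashed line is the median of all genes (0.68). The 10 genes lie between 2.96 and 4.93, above all 29 genes of melanosome biogenesis and transport and below most hair structural genes (median 9.13).

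Marker lists of other cells gave the setting. The 27 hair structural genes were all below 0, with a median of -0.67, and 0 passed. That median was -6.18 when ATR mD/mD 3 was left out, -0.18 or -0.15 when library 1 or 2 of that group was, -2.80 with limma-voom and -2.68 with the replicate block. Krt31, a hair cortex keratin, stood at 1.57, 173 and 163 CPM in the ATR WT libraries and 0.515, 2.18 and 210.4 CPM in those of ATR mD/mD, and Krt71, an inner root sheath keratin, ranged 1568-fold. Hoxc13, a factor that switches on hair keratins, ranged 11.9-fold, within the span of the 10 pigment genes. Summed levels were 265 to 14053 CPM in ATR WT and 71.2 to 14049 CPM in ATR mD/mD for the hair genes, and 147 to 839 and 85.2 to 851 CPM for the 10 pigment genes. All 10 cell division genes had the same 3 highest libraries as the hair genes, as 19.6% of all genes did. Mki67 was highest in ATR mD/mD 3 (235 CPM, beside 43.3 to 129.6 CPM elsewhere). Macrophage markers (median -0.08, 5 of 10 below 0), epidermal keratinocyte markers (0.10, 2 of 10), fibroblast markers (-0.32, 8 of 8) and cell division genes (0.05, 0 of 10) had 0 members past the threshold. The median of the cell division genes was -0.88 without ATR mD/mD 3, -0.19 with limma-voom and 0.45 with the hair level as a covariate. Their part, and that of the hair genes, in the pattern of the 10 genes was not tested.

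The genes most like the 10 in pattern were sought among 12993 genes with a mean of at least 1 log2 CPM. Likeness was the root-mean-square difference between a gene's centred log2 CPM and the mean centred profile of the 10 genes over 6 libraries. Outside the fixed lists the nearest were Tagln3 (0.26), Npy (0.30), Dlx3 (0.34), Ptgds (0.36) and Golga7b (0.36). Dlx3, a homeobox factor of the hair follicle, was at 18.7 to 191.8 CPM, and Ptgds, a prostaglandin synthase that pigment cells also make, at 4.82 to 104 CPM. The 10 genes themselves, which make up the mean profile, lay between 0.16 (Trpm1) and 0.38 (Dct), Mc1r at 0.30, Hoxc13 at 0.38, Krt31 at 2.08 and Mitf at 1.45, while the median of all genes compared was 1.62.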

How the data were processed

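Poly(A)-selected RNA from 6 skin samples was sequenced, 3 per genotype, with the TruSeq RNA v2 kit per the labels' protocols, which keeps no strand. The build mm10 and the tools TopHat2 2.0.12, FastQC and edgeR come from the submitters' processing notes. Read counter, annotation and low-count filter: not given in the sources used here. Deposited by the authors were whole-number read counts per gene with no normalization, beside the log2 fold changes, log2 CPM and p-values of their own comparison, per the file headers. Of 14486 rows, 2 name no gene (4.93% to 5.72% of counts) and were left out. Every gene had at least 171 counts in total and at least 1 CPM in 3 or more libraries.

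Counts were TMM-scaled and tested with edgeR 4.0.16 (R 4.3.3), quasi-likelihood, no covariate, Benjamini-Hochberg adjustment over 14484 genes. The SE is the absolute log2 fold change over the square root of F. Log2 CPM used a prior count of 2. Alternatives were RLE factors, no filter, 1 CPM in 3 samples, DESeq2 1.42.0 and limma-voom (limma 3.58.1). Others were the replicate number as a block, the hair level or the Y-linked level as a covariate, and leaving out each library. All 14484 genes passed both edgeR's own filter and that of 1 CPM in 3 samples. The fits under these filter settings therefore repeated the main fit and could not differ from it. On simulated data with 200 genes changed by 2 log2 units among 14484 and a dispersion of 0.02, edgeR recovered 100% with 8 false calls. In the measured data the SEs of the melanin and melanosome genes ran from 0.918 (Dct) to 1.40 (Oca2), a spread not simulated. The simulation therefore does not show whether a change of 2 log2 units in those genes could be found.

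The members and lists were chosen with earlier results of these data known. Named were the 10 genes, the 4 genes of smallest p in each related list (2 in lists of other cell types), Krt31, Krt71 and Hoxc13, and the 5 nearest in pattern; Atr, Mc1r, Corin and Mki67 (also among the 2 of its list) were named beside them. A result that this rule would name is not reported here. A planned comparison of the Tyr, Tyrp1 and Dct proteins was not made; protein sequences were not used here.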

Additional observations from a re-analysis of the deposited data

How the results depend on the processing

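No alternative called any of the 10 genes after adjustment, though the filter settings among them only repeated the main fit. The number of genes called among all 14484 was 7, and it was 39 with DESeq2, 4 with the Y-linked level as a covariate, and 4 to 10 with 1 library left out (4 without ATR WT 2, ATR WT 3 or ATR mD/mD 1). Among the 121 genes of the other lists, 0 were called, and 1 (Sox10) with DESeq2. All 10 genes were below 0 in the fit of 6 libraries, 5 with the hair level as a covariate, and 3 to 10 with 1 library left out. Their median log2 fold change was -0.59, and with 1 library left out it ran from -2.78 (without ATR mD/mD 3) to 0.21 (without ATR WT 2). With limma-voom it was -1.20.

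With the hair level as a covariate, the sign turned in Tyrp1 (0.38), Pmel (0.31), Slc24a5 (0.034), Oca2 (0.089) and Trpm1 (0.22). With 1 library left out, log2 fold changes ran from -2.59 to 0.057 in Tyrp1, -2.40 to 0.49 in Pmel, -2.83 to 0.59 in Mlana, -2.64 to 0.050 in Slc24a5, -3.45 to 0.76 in Oca2, -2.72 to 0.43 in Trpm1 and -3.75 to 0.37 in Gpr143. Those of Tyr (-3.30 to -0.36), Dct (-2.29 to -0.18) and Slc45a2 (-3.18 to -0.082) stayed below 0. The cause of these shifts was not tested.

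Deviations from the group means of same-numbered libraries had correlations across genes of 0.63, -0.51 and 0.57. ATR WT 1 was closest to ATR mD/mD 1, while ATR WT 2 and ATR WT 3 were both closest to ATR mD/mD 3. Libraries within each group also differ in hair level, so these correlations cannot show whether the replicate numbers pair the libraries. With the replicate block, 6 genes were called over all genes and 0 of the 10, whose median was -1.14. All 10 genes kept the hair order with RLE factors. Depth limits Oca2 and Gpr143 most, with 5 to 16 counts in the libraries of low hair level.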
